A study of Homo sapiens with 15 samples.

Results

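The tumour suppressor p53 is a transcription factor, and 34 of its known target genes were followed here through replicative senescence, depletion of lamin B1 and expression of the telomere protein TRF2. The 34 genes were taken from a list of established p53 targets, found by their Ensembl identifiers among the 57272 genes of the count table, and all 34 were among the 15799 genes with enough counts to be tested. Their RNA was measured by RNA-seq in the human fetal lung fibroblast line MRC-5, in 15 libraries of 5 conditions with 3 replicates each. All cells carried a lentiviral vector with GFP and received an siRNA. Young cells at population doubling (PD) 30 held the empty vector (pWPIR-GFP) with a control siRNA, the vector expressing TRF2 (pWPIR-GFP-TRF2) with the control siRNA, or the empty vector with an siRNA pool against LMNB1 (siLMNB1), the gene of lamin B1. Senescent cells were transduced before they stopped dividing, were collected after growth had ceased at PD 71 with the empty vector and at PD 75 with TRF2, and received the control siRNA. As the study describes, TRF2 was expressed for days in young cells but over many doublings in senescent cells. The length of TRF2 expression and senescence thus cannot be told apart. The labels mark the 6 senescent libraries as a reanalysis of earlier data, so senescence and the earlier data set cannot be told apart in any comparison of senescent with young cells. TRF2 came from a vector in every TRF2 library, the cells are 1 line, and no source used here says how the cultures of the 3 replicates, described as biological in the study, were kept apart, so p-values measure the spread between these libraries, which may be technical.

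Damage to DNA and unprotected telomeres activate the kinases ATM and ATR, which stabilize p53 by freeing it from the ubiquitin ligase MDM2. The protein then binds response elements made of a pair of decamer half-sites and switches on genes for cell cycle arrest, DNA repair, cell death and its own negative feedback, while repression of cell cycle genes runs indirectly through the CDK inhibitor p21, the product of CDKN1A, and the DREAM complex. In fibroblasts, p53 and p21 hold the cell cycle arrest of replicative senescence. The activity of p53 is set largely on the protein, through its stability and modifications, so that the RNA of its targets and not its own RNA is the usual readout in expression data.

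The 4 promoter stretches below are shown because they carry sequences that resemble the p53 response element close to an annotated start site. The windows reached from 250 bases before to 50 bases after each RefSeq start site (GRCh38.p14), and 27 of the 34 genes had one. A match was a pair of half-sites without a spacer, in either orientation, with at most 2 of 20 letters off the p53 consensus and with the core C and G of both half-sites kept. Such a match was found for 4 of these 27 genes, and in 0.285% of the 35116 promoter windows of all genes. The first count is per gene, over any of its windows, and the second is per window, so the 2 are not directly comparable. The stretches read 5′ to 3′ on the + strand, with the matched 20 bases in capitals. A match in letters describes the sequence, and binding of p53 was not measured. AEN lies at chr15:88621266-88621345, with the match 34 to 15 bases before the start site and outside the canonical GENCODE 44 transcript. DDB2 lies at chr11:47214929-47215003, with 1 letter off, across the start site and partly in the first exon. FAS lies at chr10:88991269-88991348 and MDM2 at chr12:68808883-68808962, both with the match in intron 1 of the canonical transcript, upstream of an internal start site.
AEN: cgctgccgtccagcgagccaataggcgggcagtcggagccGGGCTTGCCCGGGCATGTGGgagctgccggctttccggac
DDB2: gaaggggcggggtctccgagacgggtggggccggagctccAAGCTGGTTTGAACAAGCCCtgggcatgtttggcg
FAS: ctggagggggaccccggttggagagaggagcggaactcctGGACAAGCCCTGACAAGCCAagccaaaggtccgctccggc
MDM2: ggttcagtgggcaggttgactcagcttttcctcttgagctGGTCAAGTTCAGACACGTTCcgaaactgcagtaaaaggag

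Total counts per library ranged from 26725885 to 43116046, and the lowest count of any of the 34 genes in a library was 117. LMNB1 was at normalized counts of 1737 to 1964 in young cells without siLMNB1, 76, 93.6 and 88.4 with siLMNB1, and 86.2 to 182 in senescent cells. TERF2, the gene of TRF2, was at 705 to 837 without and 4127 to 9882 with the TRF2 vector, so the labels of both treatments held. The fibroblast markers COL1A1, COL1A2, THY1 and VIM were high in every library, TBX4 was low, and the epithelial, endothelial and immune markers summed to at most 253, 109.6 and 7.65 in a library. The largest epithelial sum came from KRT5, at 235 in replicate 1 of the young empty-vector cells. Replicate 3 of the senescent empty-vector cells stood apart: its chi-square per degree of freedom against its 2 partners was 131 and 99.3. The 2 partners gave 37.9 against each other, where the pairs within the other 4 conditions gave 3.60 to 26.4. The label of replicate 3 points to an earlier record outside the consecutive run of records of the other 5 senescent libraries. For the 34 genes, calls that were lost or gained without it, values that moved by more than 1.5 times, and values that left the fold threshold are given with and without it.

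A normalized count is a read count scaled by edgeR's TMM factors to the mean library size. Each log2 fold change comes with the p-value of the quasi-likelihood test of edgeR, adjusted by the Benjamini-Hochberg method for all 15799 genes, and a gene was called where the adjusted p was below 0.05. A stricter count also asks that the log2 fold change reach 1 in size in senescence, or 0.58 in the other comparisons. In bulk RNA, fewer cells that express a gene and less RNA per cell cannot be told apart. The 34 genes spanned a wide range of levels. Per kilobase of the canonical transcript, the young empty-vector libraries had a mean normalized count of 6990.3 for BAX and 3418 for CCNG1 at the top, and 102 for POLH and 131 for TNFRSF10C at the bottom.

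**Figure D1:**
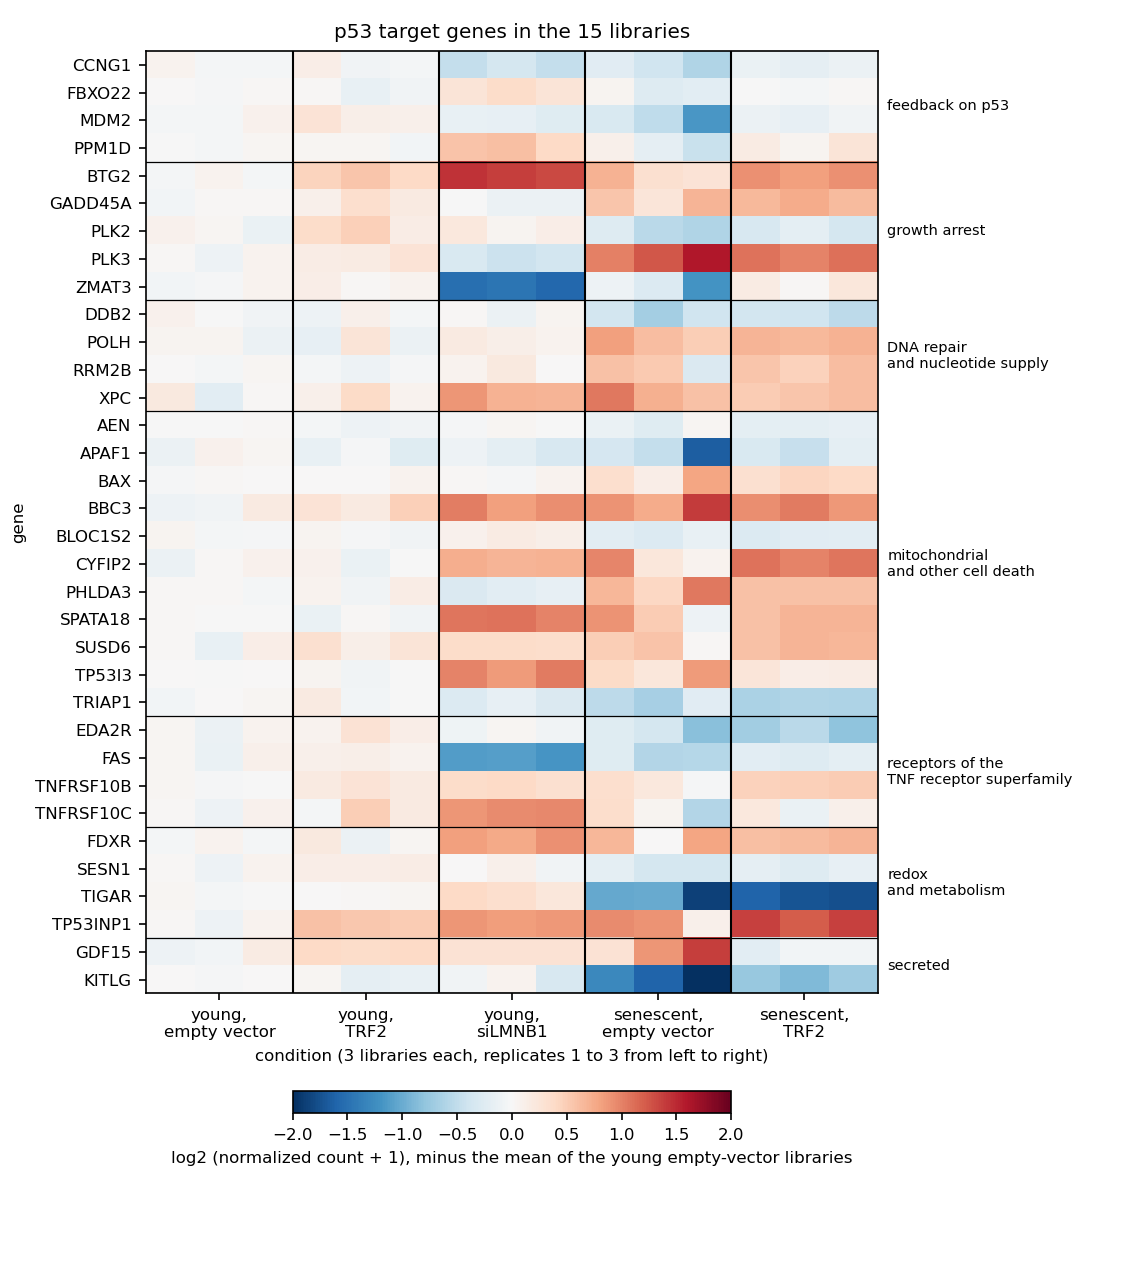
Log2 of the normalized count plus 1, less the mean of the young empty-vector libraries (colour, from -2 to 2, with larger values drawn in the end colour), for the 34 p53 target genes (rows, ordered by role) in the 15 libraries (columns, 3 per condition). The siLMNB1 libraries are alike, with ZMAT3 and FAS low and BTG2 high, whereas replicate 3 of the senescent empty-vector cells differs from its partners in genes such as APAF1, KITLG and MDM2.

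Depletion of lamin B1 in young cells was compared with the control siRNA, both with the empty vector. It changed 17 of the 34 genes, of which 13 rose and 4 fell. This is 50% of the genes, where 32.5% of all genes tested were called, 16.4% higher and 16.1% lower. The median log2 fold change was 0.12 over the 34 genes and 0.039 over all genes. With the fold threshold, 9 rose and 2 fell, where it called 18.3% of all genes, 10.3% higher and 8.06% lower. The groups did not overlap for 24 of the 34 genes, where this held for 57.4% of all genes. Calls ran in both directions in the feedback, growth arrest and receptor groups, and the strongest rise and the strongest fall were both among growth arrest genes. With 1 of the 6 libraries left out at a time, 14 to 16 genes were called: PLK3 lost its call without any of them but control replicate 2, SUSD6 without any but control replicate 3, and FBXO22 without replicate 2 of either group.

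ZMAT3, which encodes a zinc finger protein that binds RNA, had normalized counts of 8182, 8353 and 8952 in the control libraries and 2991, 3096 and 2855 with siLMNB1 (log2 fold change -1.51, SE 0.18, adjusted p = 1.21e-05). BTG2, which encodes an antiproliferative partner of the CCR4-NOT deadenylase, moved the other way, from 1245, 1345 and 1246 to 3469, 3346 and 3180.1 (log2 fold change 1.38, SE 0.10, adjusted p = 8.57e-08). The siLMNB1 libraries lay far outside the control range in both genes, on opposite sides. Of the other growth arrest genes, PLK3, a polo-like kinase, fell (-0.37, adjusted p = 0.0295), and neither its relative PLK2 nor the stress sensor GADD45A was called (0.13 and -0.081).

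FAS encodes the death receptor CD95 and was the second gene that fell past the fold threshold. It had 2112, 1874 and 2197 normalized counts in the control libraries and 945, 955 and 909 with siLMNB1 (log2 fold change -1.14, SE 0.095, adjusted p = 3.11e-07). TNFRSF10C, which encodes a decoy receptor for TRAIL without a death domain, rose from 185, 170.2 and 194 to 339.8, 355 and 359 (log2 fold change 0.94, SE 0.19, adjusted p = 0.0012). No library of one group reached the range of the other in either gene. TNFRSF10B, the gene of the TRAIL death receptor DR5, rose by less (0.36, adjusted p = 0.00363), and EDA2R, a receptor of ectodysplasin A2, was not called (-0.042).

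Among the 11 genes of mitochondrial and other cell death, 5 rose and none fell, where 16.4% of all genes were called higher and 16.1% lower. SPATA18, which encodes a protein of mitochondrial quality control, had 849.9, 827 and 826 normalized counts in the control libraries and 1759, 1769.8 and 1665 with siLMNB1 (log2 fold change 1.05, SE 0.16, adjusted p = 0.000132). TP53I3, the gene of a quinone oxidoreductase, was at 1300.2, 1279 and 1293 and 2577, 2339 and 2652 (log2 fold change 0.97, SE 0.12, adjusted p = 1.99e-05). BBC3, which encodes the BH3-only protein PUMA, was at 358, 369 and 435 and 787, 681 and 735 (log2 fold change 0.92, SE 0.15, adjusted p = 0.000165). All 3 genes were higher in every siLMNB1 library than in any control library. CYFIP2, a subunit of the actin regulatory WAVE complex, rose by 0.70 (adjusted p = 0.00391) and SUSD6, a membrane protein, by 0.36 (adjusted p = 0.0285). The pore-forming BAX stayed close to its control level (0.029, adjusted p = 0.877), and APAF1, AEN, PHLDA3, TRIAP1 and BLOC1S2 were not called (-0.24 to 0.12).

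In redox and metabolism, TP53INP1, which encodes a stress-induced protein of the nucleus and of autophagy, had 1585, 1456 and 1633 normalized counts in the control libraries and 2882, 2786 and 2836 with siLMNB1 (log2 fold change 0.86, SE 0.15, adjusted p = 0.000469). FDXR, the mitochondrial ferredoxin reductase, also rose (0.84, adjusted p = 0.000378). TIGAR, a fructose bisphosphatase that slows glycolysis, and SESN1, a sestrin that restrains mTORC1, were not called (0.32 and 0.01). Of the repair genes, XPC, which finds damaged bases for nucleotide excision repair, rose (0.75, adjusted p = 0.000402), whereas DDB2, POLH and RRM2B were not called (-0.0098 to 0.12). In the feedback group the phosphatase gene PPM1D and the F-box gene FBXO22 rose (0.53 and 0.30) and the cyclin gene CCNG1 fell (-0.44, adjusted p = 0.00201). MDM2, the central feedback gene, was at 4383, 4381 and 4769.6 in the control libraries and 4085, 4031 and 3807 with siLMNB1, with no overlap but without a call (log2 fold change -0.18, SE 0.14, adjusted p = 0.362). Neither secreted factor, the cytokine GDF15 or the KIT ligand gene KITLG, was called (0.29 and -0.10).

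Of the 4 genes with a matched promoter sequence, FAS was the one called with siLMNB1. All 17 calls held with the offsets, per gene, for length and GC content, which brought the count to 15 higher and 6 lower, beside 38.6% of all genes (19.7% higher and 19% lower).

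**Figure D2:**
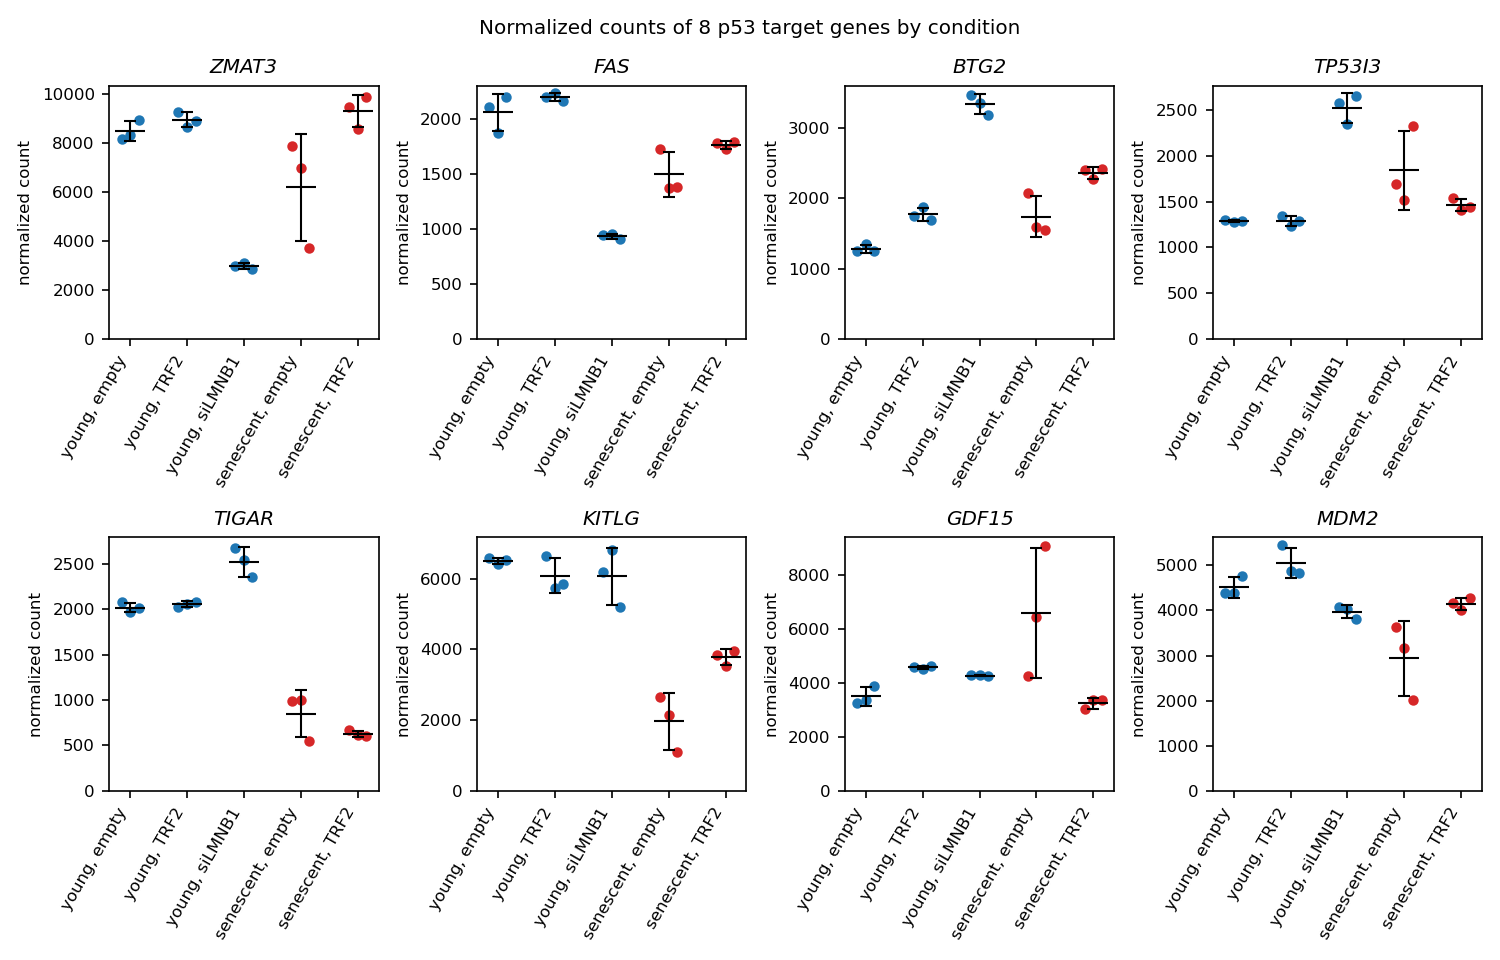
Normalized counts (vertical axis, from 0) of 8 p53 target genes in the 5 conditions, with 1 point per library (blue, young; red, senescent), the mean as a wide tick and 1 SD as bars. ZMAT3 and FAS are lowest with siLMNB1, and TIGAR and KITLG are lower in all senescent than in all young libraries. The mean of GDF15 is highest, with a wide spread, in the senescent empty-vector cells, where replicate 1 lies below all young TRF2 libraries.

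Senescent cells were compared with young cells separately for each vector, and the 2 comparisons share no library. With the empty vector 28 of the 34 genes were called, 15 higher and 13 lower, which is 82.4% beside 64.7% of all genes (32.7% higher and 31.9% lower). With TRF2 25 were called, 15 higher and 10 lower, or 73.5% beside 58.3% of all genes (28.2% higher and 30.1% lower). The median log2 fold change was 0.087 and 0.11, against 0.023 and -0.018 for all genes, and the median of its absolute value 0.47 and 0.42, against 0.63 and 0.54. Past a log2 fold change of 1 lay 4 genes with the empty vector (PLK3 and BBC3 higher, KITLG and TIGAR lower) and 2 with TRF2 (CYFIP2 higher, TIGAR lower), where the same threshold held for 28.5% (16.7% higher, 11.8% lower) and 24% (11.9% higher, 12.1% lower) of all genes. BBC3 left this threshold without replicate 3 of the senescent empty-vector cells (0.80). Without that library, 31 genes were called, with AEN, RRM2B and TNFRSF10B added, where 63.7% of all genes were, and the median was 0.21.

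Other single libraries also changed calls. With the empty vector, ZMAT3 lost its call without any of the young libraries, BLOC1S2 without young replicate 1 or senescent replicate 2, and SUSD6 without young or senescent replicate 2. CYFIP2 lost its call without young or senescent replicate 1 and SPATA18 without senescent replicate 1, which left log2 fold changes of 0.14 and 0.23, and BTG2 then came to 0.29, still called. FBXO22 and PPM1D were called without senescent replicate 1. With TRF2, BAX lost its call without young replicate 1 or 2 or senescent replicate 2, XPC without young replicate 1 or 3 or senescent replicate 2 or 3, and GDF15 without young replicate 3 or senescent replicate 1.

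Called higher with both vectors were 13 genes: BAX, BBC3, BTG2, CYFIP2, FDXR, GADD45A, PHLDA3, PLK3, POLH, SPATA18, SUSD6, TP53INP1 and XPC. Called lower with both were 9: BLOC1S2, DDB2, EDA2R, FAS, KITLG, PLK2, SESN1, TIGAR and TRIAP1. GDF15 rose with the empty vector and fell with TRF2. APAF1, CCNG1, MDM2, TP53I3 and ZMAT3 were called with the empty vector alone, RRM2B and TNFRSF10B with TRF2 alone, and AEN, FBXO22, PPM1D and TNFRSF10C in neither. A call in one vector and not in the other is no test of a difference, which is given further on. The share of all genes called in the same direction with both vectors was not computed. Since 64.7% and 58.3% of all genes were called in the single comparisons, many calls shared by both vectors occur in any list.

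Part of these changes moved with base composition. Across the 34 genes, which share the same libraries, the correlation of the log2 fold change with the GC content of the exons was 0.66 with the empty vector, 0.36 with TRF2 and 0.33 with siLMNB1 (over 15760 genes, 0.34, 0.27 and 0.078). The genes called higher in the senescent empty-vector cells had a median GC content of 56.1%, and those called lower 41.6%. A second fit removed the trend of each library with GC content and gene length by offsets from a loess curve, and the correlations over the 34 genes became -0.078, -0.20 and 0.24. With these offsets 12 genes were called higher and 6 lower with the empty vector, which is 52.9% of the 34 and below the 57.5% of all genes called (30.7% higher and 26.8% lower), and 16 and 7 with TRF2, or 67.6% beside 55.8% (28.7% higher and 27% lower). The sign turned for 8 called genes with the empty vector (BAX, BLOC1S2, CCNG1, FAS, FDXR, GADD45A, SESN1 and ZMAT3) and for 3 with TRF2 (BAX, BBC3 and BLOC1S2). Whether the trend with GC content is technical or part of senescence was not tested. Called in both fits and with both vectors were BTG2, PHLDA3, PLK3, POLH, SPATA18, TP53INP1 and XPC, higher, and DDB2, TIGAR and TRIAP1, lower. The share of all genes called in this way was not computed.

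**Figure D3:**
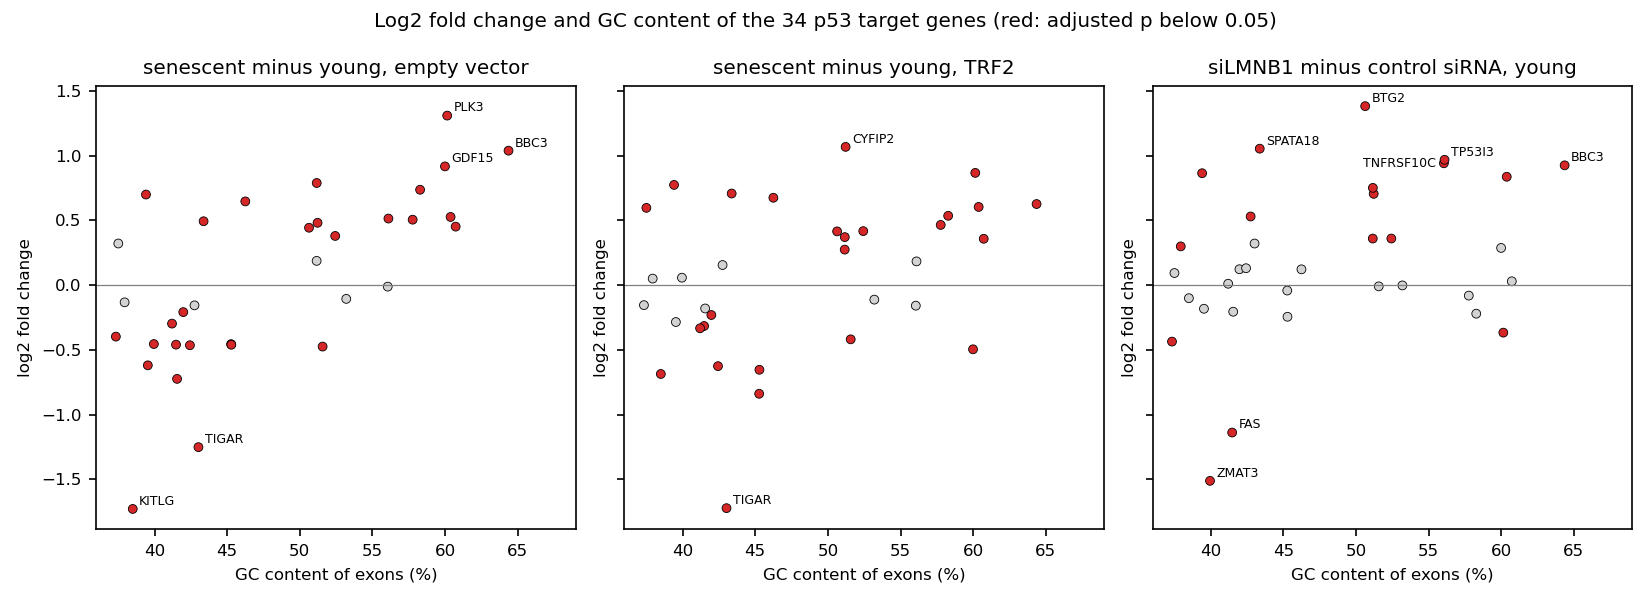
Log2 fold change of the 34 p53 target genes (vertical axis) against the GC content of their exons in percent (horizontal axis) in 3 comparisons, with called genes in red and others in grey. In senescent empty-vector cells, genes of high GC content such as BBC3 and PLK3 lie above 0 and genes of low GC content such as KITLG and TIGAR below it, and the slope is weaker with siLMNB1.

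**Figure D4:**
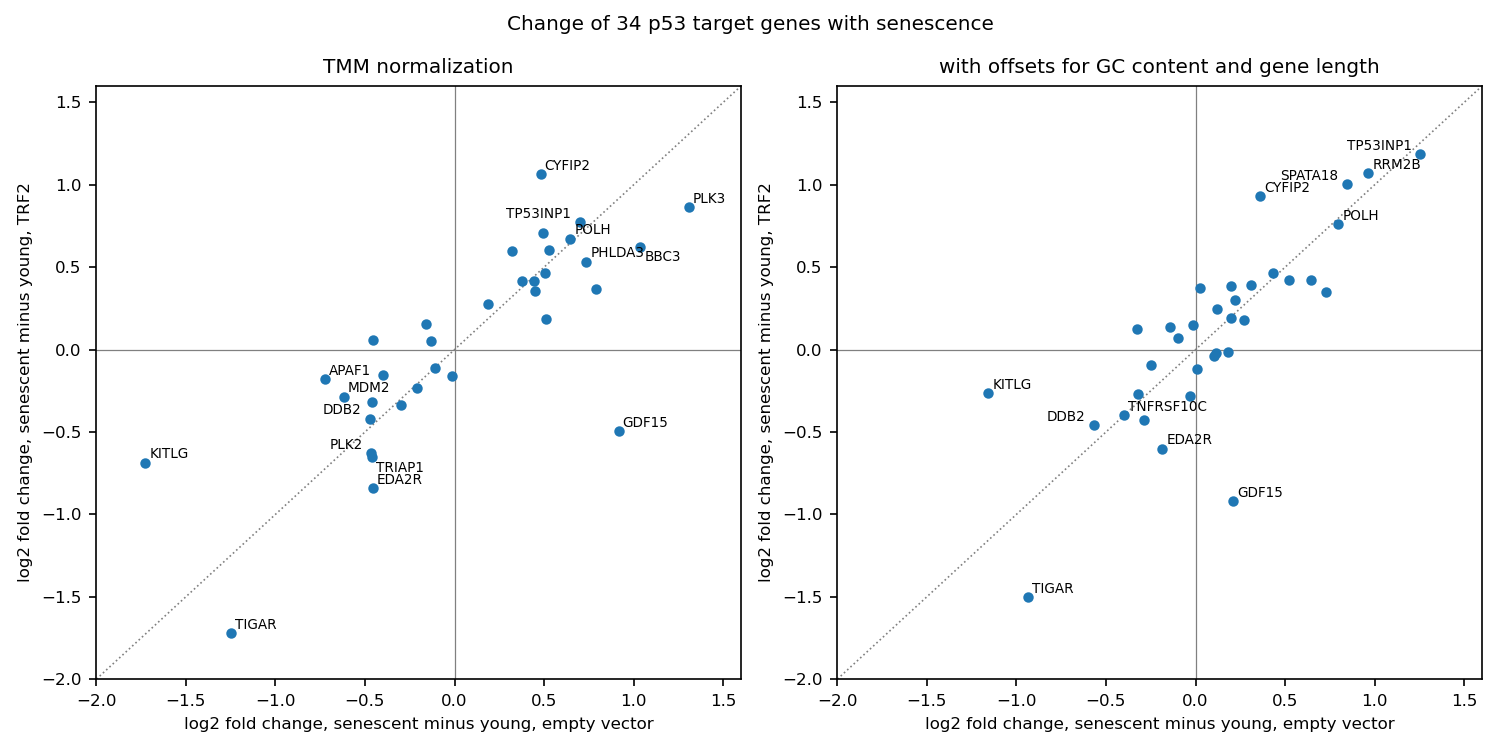
Log2 fold change of senescent minus young cells with the empty vector (horizontal axis) and with TRF2 (vertical axis) for the 34 p53 target genes, with TMM normalization (left) and with added offsets for GC content and gene length (right); the dotted line marks equal changes. TIGAR stays low on both axes in both panels, TP53INP1 stays high, BAX and BBC3 move to near 0 with the offsets, and GDF15 lies far below the line in both.

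By role, the growth arrest genes were led by PLK3, singled out after its values were seen. PLK3 was at 857, 782 and 887 in young and 1684, 1998 and 2567 in senescent empty-vector cells (log2 fold change 1.31, SE 0.12, adjusted p = 1.19e-07), and at 935, 939.5 and 1012 and 1791, 1668 and 1800.4 with TRF2 (log2 fold change 0.87, SE 0.12, adjusted p = 1.19e-05). The groups stood apart in both vectors, and the gene was still called with the offsets (0.65 and 0.42). BTG2 rose alike (0.44 and 0.41, and 0.43 and 0.46 with the offsets). GADD45A rose by 0.50 and 0.46, and was not called with the offsets (-0.014 and 0.15). PLK2 fell (-0.46 and -0.63), with -0.031 and -0.28 under the offsets, of which the second was called. ZMAT3 fell with the empty vector (-0.46, adjusted p = 0.0336), from 8182, 8353 and 8952 to 7873, 7001 and 3723, where replicate 3 was by far the lowest. Without that library the change was -0.21 (adjusted p = 0.0143).

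In the repair group, POLH, the gene of the translesion polymerase eta, rose with both vectors (0.65 and 0.67) and XPC likewise (0.79 and 0.37). An antisense gene covers 24.6% of the exonic bases of XPC, and since the strand setting of the counting is not stated, reads of the 2 genes cannot be told apart. DDB2, which recognizes damaged DNA in chromatin, fell (-0.47 and -0.42). All 3 calls held with the offsets. RRM2B, the p53-inducible subunit of ribonucleotide reductase, rose with TRF2 (0.60, adjusted p = 0.00339). With the empty vector its counts were 7379.9, 7027 and 4013 beside 4926, 4772 and 5046 in young cells, so that replicate 3 lay below the young range and the other senescent libraries above it. It was not called there (0.32, adjusted p = 0.0789), but was called without replicate 3 (0.53, adjusted p = 7.49e-07) and with the offsets (0.96).

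Of the 11 genes of the cell death group, 7 were called higher and 3 lower with the empty vector and 6 and 2 with TRF2. Of all genes, 32.7% were called higher and 31.9% lower with the empty vector, and 28.2% and 30.1% with TRF2. With the offsets the group had 3 higher and 3 lower with the empty vector and 5 and 2 with TRF2. BBC3 had 358, 369 and 435 normalized counts in young and 717, 649 and 1014 in senescent empty-vector cells (log2 fold change 1.04, SE 0.15, adjusted p = 1.32e-05), and 467, 438 and 539.5 and 734, 792 and 703 with TRF2 (log2 fold change 0.63, SE 0.14, adjusted p = 0.0014). Its groups did not overlap with either vector, but with the offsets it was called with neither (0.10 and -0.042). It has the highest GC content of the 34 genes, 64.4%. BAX rose by 0.45 (0.22 without replicate 3) and 0.36, with a GC content of 60.7%, and came to -0.25 and -0.10 with the offsets, of which the first was called lower. SPATA18 rose by 0.49 and 0.71 and PHLDA3, which encodes a repressor of AKT signalling, by 0.74 and 0.53, and both stayed called. PHLDA3 shares 18.4% of its exonic bases with a gene on the same strand. CYFIP2 was at 1048, 899 and 986 in young and 2095, 1973 and 2077 in senescent TRF2 cells (log2 fold change 1.07, SE 0.17, adjusted p = 3.97e-05), whereas the empty-vector groups overlapped, at 916, 1006 and 1055 and 1954, 1164 and 1038 (log2 fold change 0.48, SE 0.17, adjusted p = 0.0185). With the offsets its empty-vector change missed the threshold (0.36, adjusted p = 0.0502).

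TRIAP1, a mitochondrial lipid transfer protein that limits cell death, fell with both vectors (-0.46 and -0.65), with and without the offsets. BLOC1S2, a subunit of lysosome positioning complexes, fell slightly (-0.21 and -0.23) and was called higher with the offsets (0.27 and 0.18). APAF1, the core of the apoptosome, was at 1375, 1245 and 556 in senescent and 1599.9, 1843 and 1794 in young empty-vector cells, and here again replicate 3 was far below the rest (log2 fold change -0.72, SE 0.22, adjusted p = 0.00793). Without it the change was -0.43 (adjusted p = 0.000484), and with the offsets it was -0.33 and not called (adjusted p = 0.0725). TP53I3 rose with the empty vector (0.51, adjusted p = 0.00162, and 0.29 without replicate 3) and was not called with TRF2 (0.18), nor with the offsets (0.11 with the empty vector). SUSD6 rose with both vectors (0.38 and 0.42), and with the offsets the call was kept with TRF2 (0.22 and 0.30). AEN, an exonuclease of cell death, was not called (-0.11 and -0.11) but fell with the offsets (-0.32 and -0.27) and, with the empty vector, without replicate 3 (-0.21).

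Of the receptors, FAS fell with both vectors. Its counts were 1732, 1376 and 1387 in senescent beside 2112, 1874 and 2197 in young empty-vector cells, and 1781, 1727 and 1794 beside 2202, 2234 and 2164 with TRF2 (-0.46, adjusted p = 0.000454, and -0.32, adjusted p = 0.00815). The ranges did not overlap, but with the offsets neither change was called (0.0072 and -0.12). EDA2R fell as well (-0.46 and -0.84), and with the offsets it was called with TRF2 (-0.60, adjusted p = 0.000466). TNFRSF10B rose with TRF2 (0.27, adjusted p = 0.00993), and with the empty vector it was called once replicate 3 was left out (0.19 with and 0.26 without it). TNFRSF10C, which shares 33% of its exonic bases with genes on the same strand that are not in the table used, was not called (-0.012 and -0.16). The 136 tested genes with such a share above 20% and up to 50% had median log2 fold changes of -0.47 and -0.56 with senescence. The part of this in TNFRSF10C was not tested.

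TIGAR was the one gene that fell past the fold threshold with both vectors. It had 2077, 1971 and 2013 normalized counts in young and 993, 1006 and 552 in senescent empty-vector cells (log2 fold change -1.25, SE 0.16, adjusted p = 3.69e-06), and 2027, 2064 and 2085 and 664, 609 and 599 with TRF2 (log2 fold change -1.72, SE 0.16, adjusted p = 1.25e-07). Every senescent library lay below every young one, and the gene stayed called with the offsets (-0.93 and -1.50) and without replicate 3 (-1.04). TIGAR shares 18.1% of its exonic bases with a gene on the same strand that is not in the table used. The 99 tested genes with a share above 10% and up to 20% had median log2 fold changes of -0.25 and -0.31 with senescence, against 0.024 and -0.013 for the 14860 genes with no such share, and the part of this in TIGAR was not tested. Whether young and senescent libraries were counted with the same annotation is not given in the sources used here. TP53INP1 rose with both vectors (0.70 and 0.77, and 1.25 and 1.19 with the offsets). FDXR rose (0.53 and 0.60) and SESN1 fell (-0.30 and -0.33), but neither was called with the offsets.

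Of the feedback genes, 2 of 4 were called with the empty vector and none with TRF2, where 64.7% and 58.3% of all genes were called. MDM2 was at 4383, 4381 and 4769.6 in young and 3635, 3162 and 2016 in senescent empty-vector cells (log2 fold change -0.62, SE 0.15, adjusted p = 0.00145), with replicate 3 again the lowest, and at -0.43 (adjusted p = 4.7e-05) without it. With TRF2 the counts were 5449, 4875 and 4838 and 4156, 4008 and 4278, apart but not called (log2 fold change -0.29, SE 0.14, adjusted p = 0.102). With the offsets MDM2 was called with neither vector (-0.10 and 0.073). It shares 5.29% of its exonic bases with another gene on the same strand and 11.1% with genes on the other strand. CCNG1 fell with the empty vector (-0.40, adjusted p = 0.00146) and was higher with both vectors under the offsets (0.31 and 0.39, both called). FBXO22 and PPM1D were called with neither vector, and higher with both under the offsets (0.52 and 0.42, 0.20 and 0.38). An antisense gene covers 16.2% of the exonic bases of FBXO22.

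KITLG encodes stem cell factor, the ligand of KIT, and had the largest fall of the 34 genes with the empty vector. Its normalized counts were 6575, 6410.2 and 6536 in young and 2659.6, 2153 and 1086 in senescent cells (log2 fold change -1.73, SE 0.21, adjusted p = 2.9e-06). With TRF2 they were 6653, 5738 and 5857 and 3848, 3539 and 3955 (log2 fold change -0.69, SE 0.21, adjusted p = 0.00927). All senescent libraries were below all young ones. Without replicate 3 the empty-vector change was -1.46 (adjusted p = 6.36e-10), and with the offsets it was -1.16 with the empty vector and -0.26, not called, with TRF2.

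TRF2 in young cells changed none of the 34 genes by edgeR's quasi-likelihood test, where 0.177% of all genes were called. At an unadjusted p below 0.05 there were 6 of the 34 (9.66% of all genes), DESeq2 called 1 (BTG2, with 1.14% of all genes called), and a fit of only the 6 libraries compared called 5 (3.3% of all genes). The groups did not overlap for 11 genes, where this held for 23.6% of all genes. The largest change was that of TP53INP1, at 1585, 1456 and 1633 with the empty vector and 2327, 2255 and 2221 with TRF2 (log2 fold change 0.54, SE 0.15, adjusted p = 0.206), which was called with the offsets (adjusted p = 0.0135), where 0.361% of all genes were.

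TRF2 in senescent cells changed 8 of the 34 genes, of which 7 rose and 1 fell, where 11.3% of all genes were called, 4.87% higher and 6.41% lower. The median was 0.12, against -0.023 for all genes. The 2 senescent cultures differed in PD as well as in the vector, and TRF2 had been expressed for longer than in the young cells. The count rests on the spread borrowed from all 15 libraries and on single libraries: it was 0 in a fit of the 6 libraries compared, where 0.0137% of all genes were called. Without replicates 1, 2 and 3 of the empty-vector cells it was 17, 6 and 10, where 27.1%, 8.5% and 10.8% of all genes were called, and EDA2R, GADD45A and TIGAR were added without replicate 3. With and without that library, the log2 fold change was -0.22 and -0.38 for EDA2R, 0.17 and 0.27 for GADD45A, and -0.44 and -0.68 for TIGAR. Without replicates 1, 2 and 3 of the TRF2 cells the count was 2, 4 and 3, where 4.45%, 4.77% and 5.73% of all genes were called. GDF15 and KITLG were called whichever of the 6 libraries was left out, and the other 6 genes lost their calls without replicate 1 of the TRF2 cells.

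GDF15, a secreted cytokine of the TGF-beta superfamily, was the gene that fell, from 4261, 6445 and 9092 normalized counts with the empty vector to 3014, 3349.9 and 3368 with TRF2 (log2 fold change -1.02, SE 0.18, adjusted p = 0.00198). The empty-vector libraries were widely spread but did not reach the TRF2 range. KITLG rose, from 2659.6, 2153 and 1086 to 3848, 3539 and 3955 (log2 fold change 0.94, SE 0.21, adjusted p = 0.00952), and so did TP53INP1, from 3008, 2915 and 1666 to 4000.0, 3588 and 4037 (log2 fold change 0.62, SE 0.15, adjusted p = 0.0177). Both gaps held for every library pair. ZMAT3 was at 7873, 7001 and 3723 and 9467, 8592 and 9888 (log2 fold change 0.59, SE 0.18, adjusted p = 0.0435), and MDM2 at 3635, 3162 and 2016 and 4156, 4008 and 4278 (log2 fold change 0.50, SE 0.15, adjusted p = 0.0376). In KITLG, TP53INP1, ZMAT3 and MDM2 replicate 3 of the empty-vector cells was the lowest library, and without it the changes were 0.66, 0.39, 0.33 and 0.29, all still called. CYFIP2 was at 1954, 1164 and 1038 and 2095, 1973 and 2077 (log2 fold change 0.57, SE 0.16, adjusted p = 0.037), came to 0.90 without replicate 1 of the empty-vector cells and lost its call without their replicate 3 (0.40, adjusted p = 0.0651). BTG2 was at 2070.4, 1595 and 1551 and 2397, 2265 and 2412 (log2 fold change 0.44, SE 0.10, adjusted p = 0.0116), and TNFRSF10B at 9192, 8409 and 7175 and 9981, 10127 and 10301 (log2 fold change 0.30, SE 0.083, adjusted p = 0.0324). Both stayed called without replicate 3, and all 8 changes were called with the offsets, where 15.8% of all genes were.

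Whether the senescence change differed between the vectors was tested with the interaction of senescence and TRF2. TRF2 was expressed for longer in senescent than in young cells, which this term cannot tell apart from senescence. The interaction was called for GDF15 alone among the 34 genes, where 1.13% of all genes were called. GDF15 was at 3245, 3353 and 3898 in young empty-vector cells and 4596, 4505 and 4621 in young TRF2 cells, so that with senescence it rose with the empty vector (log2 fold change 0.92, SE 0.18, adjusted p = 0.000277, and 0.60 without replicate 3) and fell with TRF2 (log2 fold change -0.50, SE 0.18, adjusted p = 0.0233). With the offsets the rise with the empty vector was not called (0.21), and the fall with TRF2 was (-0.92). The interaction was -1.41 on the log2 scale (SE 0.25, adjusted p = 0.021), -1.13 with the offsets (adjusted p = 0.00248) and -1.09 without replicate 3 of the senescent empty-vector cells (adjusted p = 0.00191). It was not called in a fit of the 12 libraries without siLMNB1, nor when replicate 1 or 2 of the young empty-vector cells, replicate 1 of the young TRF2 cells, or replicate 1 or 2 of the senescent TRF2 cells was left out. The count of called genes was 6 without replicate 1 and 4 without replicate 3 of the senescent empty-vector cells, where 12.8% and 2.11% of all genes were called. For KITLG the interaction was 1.04 (SE 0.29, adjusted p = 0.105), called with the offsets (adjusted p = 0.0198, with 2.15% of all genes called) and without replicate 3 (0.77, adjusted p = 0.00569). TIGAR went the other way, with an interaction of -0.47 (adjusted p = 0.311) that was called with the offsets (-0.57, adjusted p = 0.0368) and without replicate 3 (-0.69, adjusted p = 0.00164). EDA2R was not called with all libraries (-0.38, adjusted p = 0.327) and was called without replicate 3 (-0.53, adjusted p = 0.0355).

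Of 14 genes for regulators of the p53 protein, among them damage kinases, acetyltransferases and ubiquitin ligases, 1 rose and 6 fell in senescence with the empty vector, 2 rose and 6 fell with TRF2, and 2 rose and 2 fell with siLMNB1. These shares of 50%, 57.1% and 28.6% stand beside 64.7%, 58.3% and 32.5% of all genes, and those with TRF2 and siLMNB1 are close. Of all genes, 32.7%, 28.2% and 16.4% were called higher and 31.9%, 30.1% and 16.1% lower, in the same order. Called past the fold threshold with both vectors were CHEK1, a checkpoint kinase (-1.86 and -1.83), and CDKN2A, the gene of p16 and ARF (1.20 and 1.77). CDKN2A was at 644, 662 and 581 in young and 1105, 1248 and 1976 in senescent empty-vector cells. Replicate 3 was the highest, and the change without it is not given here. An antisense gene covers 15.3% of the exonic bases of CDKN2A.

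CDKN1A, the gene of p21, was at 53128, 53509 and 54050.1 in young and 111478, 89239.6 and 107059 in senescent empty-vector cells (log2 fold change 0.94, SE 0.087, adjusted p = 1.2e-07), and at 61351, 55425 and 63115 and 104396, 104409 and 110439 with TRF2 (log2 fold change 0.83, SE 0.087, adjusted p = 5.47e-07). With siLMNB1 it was at 60378, 60392 and 61106, above the control range but not called (log2 fold change 0.18, SE 0.086, adjusted p = 0.126). Of 24 further p53 targets including CDKN1A, 23 were tested, since SFN had too few counts. Of these, 12 rose and 4 fell in senescence with the empty vector, 12 rose and 6 fell with TRF2, and 7 rose and 1 fell with siLMNB1. The shares called were 69.6%, 78.3% and 34.8%, beside 64.7%, 58.3% and 32.5% of all genes. Of all genes, 32.7%, 28.2% and 16.4% were called higher and 31.9%, 30.1% and 16.1% lower. The largest rises with the empty vector were those of FUCA1, a lysosomal fucosidase (3.61, and 3.36 with TRF2), PIDD1, a death domain protein (1.79 and 1.29), and NINJ1, a protein of plasma membrane rupture (1.38 and 1.14). PTP4A1, a phosphatase gene, fell: its normalized counts ranged from 11376 to 13538 in young cells without siLMNB1 and from 19.8 to 32.2 in senescent cells. It shares 78.1% of its exonic bases with another gene on the same strand, and whether the counting of the young and senescent libraries treated these exons alike was not tested.

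Of 12 cell cycle genes that p53 is known to lower through p21 and DREAM, 11 fell in senescence with the empty vector, 12 with TRF2, and 11 with siLMNB1, and none rose, beside 31.9%, 30.1% and 16.1% of all genes called lower. Their median log2 fold changes were -2.71, -3.37 and -1.10. The largest falls with the empty vector were those of CENPF, a kinetochore protein (-3.11), the cyclin gene CCNA2 (-3.07), PLK4, the kinase of centriole duplication (-2.99), and the mitotic kinase PLK1 (-2.84). All 12 were called lower in senescent TRF2 than in senescent empty-vector cells by the same test (median -0.81), where 6.41% of all genes were. In a fit of the 6 libraries compared, 0.0137% of all genes were called, and the 2 senescent cultures also differed in PD. With siLMNB1, CDKN1A lay above the control range but was not called, and 13 of the 34 target genes rose and 4 fell. The part of p53 and p21 in the fall of the cell cycle genes was not tested.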

How the data were processed

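RNA of 15 libraries was sequenced with paired-end reads. The authors trimmed the reads with Trimmomatic to a minimum of 35 bases, used STAR to map them to GRCh38 and count reads per gene, and deposited these raw counts, without normalization. The annotation release and the strand setting of the counting are not given in the sources used here. Groups came from the labels, and the column names show that the siLMNB1 libraries carried the empty vector.

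Genes were matched to GENCODE 44 by Ensembl identifier (324 of 57272 were absent). The 15799 genes that passed filterByExpr were normalized with TMM and fitted in one model with 1 mean per condition in edgeR 4.0.16 (R 4.3.3, limma 3.58.1), with the quasi-likelihood test and Benjamini-Hochberg adjustment. DESeq2 1.42.0 served as an alternative, and Python 3.11.15 (pandas 2.3.3, numpy 2.4.6, matplotlib 3.10.9) for summaries and figures. Offsets came from loess curves (span 0.3, prior count of 1) of each library against the young empty-vector mean. Promoter sequences are from RefSeq (GRCh38.p14), with 27 of 34 genes matched. The fit was tested on simulated counts. Alternatives were another normalization, no filter, a replicate block, the offsets, a fit of the compared libraries alone, genes without shared exons, and each library left out.

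The 34 genes, the 3 further gene lists and the tests were chosen with earlier results of these data known. Values in every library are given for genes called past the fold threshold (in senescence, with both vectors or in opposite directions), called for TRF2 in senescent cells or in the interaction, at most 8 per comparison, and for MDM2, GDF15 and BBC3. Of the further lists, up to 4 genes called past the fold threshold with both vectors are named, and CDKN1A in any case. 1 gene of these lists is not reported here. Other genes given per library were singled out after their values were seen.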

Additional observations from a re-analysis of the deposited data

Results flagged for a closer look

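For 2 of the genes described, the senescence change was called as different between the vectors by the interaction term of edgeR's quasi-likelihood test. This held for 1.13% of all genes. For GDF15, the secreted cytokine, the difference was -1.41 on the log2 scale (SE 0.25, adjusted p = 0.021), with a rise in all 3 senescent libraries over the young ones with the empty vector and with 3 of 3 senescent TRF2 libraries below the young TRF2 range. For CDK1, the kinase that drives mitosis and a gene of the cell cycle list, it was -1.002 (SE 0.16, adjusted p = 0.0166). CDK1 fell with both vectors, from 1515, 1525 and 1529 normalized counts to 271, 252 and 232 with the empty vector and from 1221, 1223 and 1257 to 97.5, 83.1 and 123 with TRF2, and thus by more with TRF2. The PD at collection also differed between the senescent cultures, and the length of TRF2 expression differed between young and senescent cells. The part of either in both differences was not tested. As given above, the GDF15 call was lost in the fit without the siLMNB1 libraries and when some single libraries were left out. The CDK1 call was kept with the offsets, and its dependence on single libraries is not given here.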

How the results depend on the processing

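Of the 79 log2 fold changes of genes called in a comparison, all kept their direction and call with DESeq2, with RLE normalization and with the replicate block. Without a filter on low counts 5 lost their call, and in fits of only the libraries compared 17 did. With the offsets 14 lost their call and 11 reversed, and with offsets and the replicate block together 16 and 10. All 38 of genes without shared exons kept theirs, and of 480 values with a library left out 55 lost their call and none reversed. The cause of these changes was not tested, apart from the smaller number of genes or libraries in some fits. The genes whose calls single libraries changed are named in the results for senescence and siLMNB1, and the counts for TRF2 in senescent cells are given there for each library.

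The reversed values, with the offsets and with offsets plus block, were -0.25 and -0.25 for BAX, 0.27 and 0.27 for BLOC1S2, 0.31 and 0.31 for CCNG1, -0.14 and -0.16 for FDXR, -0.014 and -0.019 for GADD45A, 0.18 and 0.18 for SESN1, 0.027 and 0.026 for ZMAT3 and, with the offsets, 0.0072 for FAS, in senescence with the empty vector. With TRF2 they were -0.095 and -0.095 for BAX, -0.042 and -0.040 for BBC3, and 0.18 and 0.18 for BLOC1S2. The count of called genes in senescence with the empty vector fell from 28 to 18 with the offsets, with or without the block. Among the 17 genes without shared exons the counts were 14 and 13 in senescence with the empty vector and TRF2, 7 with siLMNB1 and 3 for TRF2 in senescent cells. For TRF2 in young cells the count of 0 became 1 with DESeq2, 2 without the filter, 5 with only the libraries compared and 1 with the offsets, with or without the block. For TRF2 in senescent cells the count of 8 became 0 with only the libraries compared. For the interaction it was 2 with DESeq2, 4 without the filter, 0 with only the libraries compared and 3 with the offsets, with or without the block. The median log2 fold change moved to -0.088 in senescence with the empty vector for genes without shared exons. With TRF2 it moved to 0.14 with the offsets, 0.15 with the block added and 0.059 for genes without shared exons. With siLMNB1 it moved to 0.18 with the offsets and 0.18 with the block added.

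With each compared library left out, the counts ranged from 25 to 31 and from 23 to 24 in senescence with the empty vector and TRF2, from 14 to 16 with siLMNB1, from 0 to 0 for TRF2 in young cells, from 2 to 17 for TRF2 in senescent cells and from 0 to 6 for the interaction. The medians ranged from -0.0034 to 0.21, 0.065 to 0.15, 0.095 to 0.15, 0.028 to 0.082, 0.071 to 0.21 and -0.054 to 0.11 in the same order. Same-numbered libraries of different conditions did not deviate together: of 30 correlations, from -0.094 to 0.19, 2 were above 0.1, so the numbers were not taken to pair the samples, and the replicate block left the counts at 28, 25, 17, 0, 8 and 1. Counts were at least 117 per gene and library for the 34 genes, and the share of the error that is due to depth was not computed.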
